A study of Sus scrofa with 35 samples.

Results

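Lumican (LUM), 4 other small leucine-rich proteoglycans (DCN, decorin; BGN, biglycan; FMOD, fibromodulin; OGN, osteoglycin) and 5 matrix glycoproteins (SPARC, osteonectin; FN1, fibronectin; POSTN, periostin; TNC, tenascin C; THBS1, thrombospondin 1) were followed in pig back muscle, the longissimus dorsi of castrated males. The members were all non-control probes that carry one of these 10 symbols as gene name on the array, 52 of 60305 probes, and every probe was read apart. LUM had 11 probes, POSTN and SPARC 8 each, DCN and THBS1 7 each, FN1 4, TNC 3, BGN 2, and FMOD and OGN 1 each. The set was chosen by measured values of these arrays: LUM for its Creole minus Large White difference, so that its breed values are a description without a test, and the other 9 genes as relatives by role, with their HS minus TN results already known. None of the HS minus TN tests here is therefore independent of the choice.

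The pigs were Creole, Large White or their F1 cross, and each was sampled either under thermoneutral conditions (TN) or after heat stress (HS). Creole TN, Creole HS, F1 TN, Large White TN and Large White HS had 6 arrays each and F1 HS had 5. By the sample labels the room was at 24 °C in TN and 30 °C in HS. The growth protocol instead states 5 days at 32 °C. The study's methods also give a constant 32 °C, which had lasted up to 5 days when an HS pig was slaughtered. Why the labels read 30 °C could not be settled. All TN pigs were slaughtered before the room was warmed and all HS pigs later and from different pens. Slaughter day, age and pen therefore cannot be told apart from temperature. The pigs of a breed were sets of littermates, whose relation is not in the labels, so that p-values treat related animals as independent.

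Small leucine-rich proteoglycans are secreted proteins with a core of leucine-rich repeats and, in most members, a glycosaminoglycan chain. They bind collagen fibrils and set their diameter and spacing. SPARC, POSTN, TNC and THBS1 are matricellular proteins, which sit in the matrix without being main structural parts of it and alter how cells adhere to it, while FN1 is a large adhesive glycoprotein that cells assemble into fibrils through integrins. In skeletal muscle all of these belong to the connective tissue around fibres and bundles, which fibroblasts and related cells secrete. In the pig reference annotation DCN, LUM and KERA lie side by side on chromosome 5, FMOD next to PRELP on chromosome 9, and OGN next to OMD on chromosome 3.

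Levels are log2 of the quantile-normalised median pixel intensity, and a level is compared only between arrays of the same probe. Of the 52 probes, 51 passed the filter on dim probes (in 1 group or more, 75% of its arrays had to be well above local background). The probe left out, DCN O10060, was not well above background on any array. Of the kept probes, FMOD O12587 was well above background on 26 of 35 arrays, TNC A_72_P638389 on 32 and POSTN O11455 on 34, and the other 48 on all 35. The labelled tissue was borne out by its fibre markers: ACTA1, skeletal muscle actin, read between 19.31 and 19.39 on the 35 arrays and CKM, muscle creatine kinase, between 19.18 and 19.31. In whole muscle, fewer cells of a type and less RNA per cell cannot be told apart.

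Array Creole TN replicate 1 stood apart before any comparison. By the brightest kept probe of each gene it was the lowest of all 35 arrays for 9 of the 10 members, FMOD apart, and its mean over 10 leukocyte and macrophage markers, 7.99, was also the lowest of all arrays (range 7.99 to 11.67). Its share of probes well above background was 70.4%, within the range of the 35 arrays, which ran from 58.4% to 75.9%. Where leaving it out ended a call or moved a named value by more than 1.5 times, the value without it is given.

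The 11 LUM probes did not give 1 picture of the breeds. The 3 with a Creole minus Large White difference above 0.8 lie within a few bases of each other, at start positions 1460 and 1465 along the transcript record of the array design, and the last 30 bases of each 60-base probe are shown here because they hold the stretch that these 3 share. Capitals mark the 17 bases present in all 3 of which no run of 6 occurs in any other LUM probe. No further probe on the array holds these 17 bases on either strand.
A_72_P583531: acacaCCAAACAATGCTTTATTtgtaaatt
A_72_P665036: CCAAACAATGCTTTATTtgtaaatttatgc
A_72_P624127: CCAAACAATGCTTTATTtgtaatttattgc

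The neighbours on both sides are shown for comparison, again by their last 30 bases. A_72_P573664 starts at position 1440, shares a run of 40 bases with A_72_P583531 and stops within the first bases of the marked stretch. A_72_P769870 starts at position 1529, beyond it, and is the brightest LUM probe.
A_72_P573664: acaaatacacagacacacacacacaccaaa
A_72_P769870: ttgtactggtttcatggaagtcagtcgagg

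A_72_P665036 and A_72_P624127 start at the same base and differ at 3 positions counted from 1 at the 5′ end of the probe, written A53T, T56A and A57T with the base of A_72_P665036 first. The 14-base CA repeat that precedes the marked stretch is held in common by all 3 probes and by A_72_P573664. The marked stretch was found by comparing these probes after their breed values were known. Why the LUM probes differ in their breed values was not tested. The values were as follows.

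On A_72_P665036, Creole TN arrays read 9.53, 10.02 and 11.08 (lowest, median and highest of 6) and Creole HS arrays 7.60, 10.08 and 10.80. Large White TN arrays read 7.84, 8.27 and 8.50, and Large White HS arrays 7.84, 8.33 and 8.89. All Large White arrays thus lay below all Creole TN arrays, and 2 of the 6 Creole HS arrays lay among or below the Large White values. The Creole mean was 9.88 ± 1.00 (SD, n = 12) and the Large White mean 8.31 ± 0.29 (SD, n = 12), a difference of 1.57 on the log2 scale. The spread was wider in Creole than in Large White, with 2 low HS arrays at 7.60 and 8.38 below the next array at 9.53.

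F1 arrays fell on both sides of a gap on this probe. F1 TN arrays read 7.73, 8.10 and 9.86 (lowest, median and highest of 6), and the 5 F1 HS arrays read 9.94, 9.69, 8.15, 9.87 and 10.01. In all, 6 F1 arrays lay between 7.73 and 8.56 and 5 between 9.69 and 10.01, with none in the 1.13 log2 units between. Of the F1 arrays above the gap, 1 was TN (of 6) and 4 were HS (of 5). The F1 values below the gap overlapped the Large White range and those above it overlapped the Creole TN range.

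A_72_P624127 gave nearly the same values, with a Creole mean of 9.83 ± 1.04 (SD, n = 12), a Large White mean of 8.25 ± 0.34 (SD, n = 12) and the same split of F1 into 6 and 5 arrays. On A_72_P583531 the Creole mean was 10.13 ± 0.61 and the Large White mean 9.31 ± 0.29 (SD, n = 12 each), a smaller difference of 0.82. These 3 probes overlap by at least 52 bases and are 1 measurement of the transcript made 3 times rather than 3 independent ones.

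The flanking probes did not follow them. On A_72_P573664 the Creole mean was 11.21 ± 0.33 and the Large White mean 11.34 ± 0.25 (SD, n = 12 each), and the F1 mean was 10.94 ± 0.38 (SD, n = 11). On A_72_P769870 they were 11.88 ± 0.35, 12.10 ± 0.39 and 11.76 ± 0.31. Across the other 8 LUM probes, Creole minus Large White ran from -0.36 to 0.06. Of all kept probes 0.699% differed by more than 0.8 log2 between these breeds, and nothing is read from that share because the contrast itself drew attention to LUM.

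**Figure D1:**
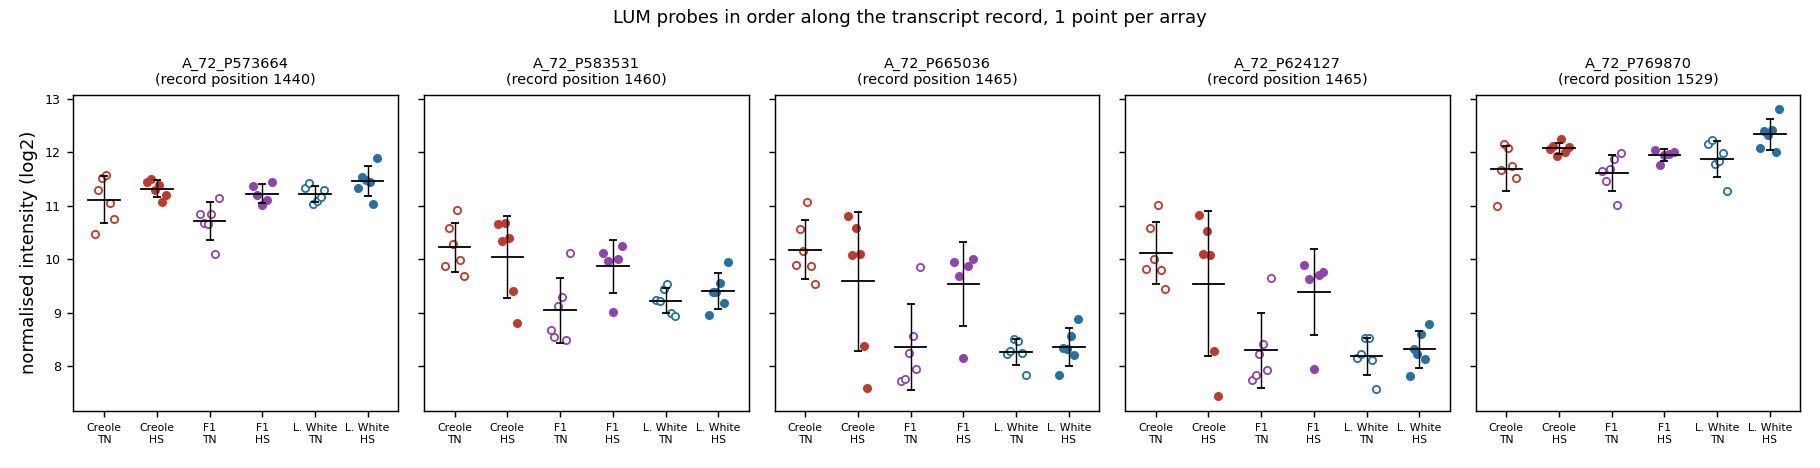
Normalised intensity (log2, y axis) of 5 LUM probes on each array of the 6 groups (x axis), in order of their start position along the transcript record; open points are TN, filled points HS, lines are group means and bars SD. The Creole mean lies above the Large White mean on the 3 middle probes, which also split F1 (6 arrays up to 8.56 and 5 from 9.69 on A_72_P665036), while on the outer 2 the Creole mean lies below it.

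Another LUM pair differs by a single base. A_72_P455882 and A_72_P293589 read the same site 1 base apart and differ by the substitution T37G (position from 1 at the 5′ end of A_72_P455882), shown in capitals within 30 bases around it.
A_72_P455882: tttatggttatggtTatttgtgagtccgtt
A_72_P293589: tttatggttatggtGatttgtgagtccgtt

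Their temperature differences, 0.30 (SE 0.09) and 0.43 (SE 0.11), were both called, and their breed differences were -0.23 and -0.36. O229 has the same 60 bases as A_72_P455882 and gave 0.31 (SE 0.09). A_72_P065926 was the LUM probe least like the others: after removal of the 6 group means its Pearson r with A_72_P769870 over 35 arrays was 0.06, against 0.32 to 0.82 for the other 9. Its last 30 bases, which hold a TG repeat, are shown because it is the only LUM probe that read lower in HS (-0.07, SE 0.13, adjusted p = 0.740 by limma).
A_72_P065926: tatgtgtgtgtgtgtgtgcatgatagggtc

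The main question of the study was which transcripts respond to heat whatever the breed. For this the 35 arrays entered 1 additive limma fit of breed and temperature, with Benjamini-Hochberg adjustment over all 41517 kept probes. In HS, 17 of the 51 kept member probes were higher and none was lower at an adjusted p below 0.05. They were 5 probes of LUM, 4 of POSTN, 3 of FN1, 2 of BGN, 2 of DCN and 1 of SPARC. Over all kept probes 16.0% were called, 7.73% as higher and 8.30% as lower in HS. The median difference over the 51 probes was 0.32, against -0.02 over all kept probes, and 49 of the 51 estimates were above 0. Probes of 1 gene share its transcript, and several overlap, so these counts do not stand for independent genes. Without Creole TN replicate 1, 16 member probes were called, where 12.7% of all kept probes were. The differences in that fit were 0.66 for BGN O2050, 0.35 for LUM A_72_P769870, 0.29 for SPARC O2581 and 0.72 for FN1 A_72_P340983, all still past the test.

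BGN, which carries chondroitin or dermatan sulphate chains, had the smallest adjusted p of the members. On O2050, TN arrays read 13.24, 14.73 and 15.47 (lowest, median and highest of 18) and HS arrays 14.58, 15.35 and 16.26 (of 17). The groups overlapped, but 16 of the 17 HS arrays lay above the TN mean of their breed. The difference was 0.75 (SE 0.15, limma adjusted p = 0.0010), a 1.68-fold higher intensity in HS. A_72_P203952, the other BGN probe, gave 0.46 (SE 0.10, limma adjusted p = 0.0035).

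LUM was higher in HS on 5 of its 11 probes. On A_72_P769870, TN arrays read 10.99, 11.76 and 12.22 (lowest, median and highest of 18) and HS arrays 11.75, 12.05 and 12.80 (of 17). All 17 HS arrays lay above the TN mean of their breed, and the lowest HS array was level with the middle of the TN arrays. The difference was 0.39 (SE 0.10, limma adjusted p = 0.0053), or 1.31-fold. The other called LUM probes, A_72_P293589, A_72_P573664, O229 and A_72_P455882, ran from 0.30 to 0.43. The 3 probes with the breed pattern were not called (0.19 to 0.26, adjusted p from 0.327 to 0.675), with SEs of 0.18 to 0.27 against 0.09 to 0.11 for the 5 called probes.

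DCN, a binder of collagen and of TGF-beta, had smaller estimates. On its brightest probe, A_72_P596994, TN arrays read 14.85, 15.44 and 15.91 (lowest, median and highest of 18) and HS arrays 15.28, 15.61 and 15.92 (of 17), with a difference of 0.14 (SE 0.06, limma adjusted p = 0.119) that did not pass the test. The 2 DCN probes that passed, A_72_P180841 (0.25, SE 0.08, limma adjusted p = 0.0264) and A_72_P178111 (0.24, SE 0.08, limma adjusted p = 0.0347), share 54 of 60 bases and are in effect 1 site. Both lost the call with 75th percentile scaling, A_72_P180841 at 0.14 (limma adjusted p = 0.271) and A_72_P178111 at 0.13 (limma adjusted p = 0.307). A_72_P178111 also lost it with median scaling (limma adjusted p = 0.0618) and when Creole TN replicate 1 (0.0598), Creole HS replicate 1 (0.0552), F1 HS replicate 4 (0.0559) or Large White TN replicate 1 (0.0533) was left out. The remaining 4 kept probes ran from 0.01 to 0.14. Without Creole TN replicate 1 the lowest of them, A_72_P280399, was at -0.005.

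OGN and FMOD were not called. On OGN O562, TN arrays read 9.97, 10.84 and 11.28 (lowest, median and highest of 18) and HS arrays 10.30, 10.91 and 11.56 (of 17), a difference of 0.19 (SE 0.11, limma adjusted p = 0.229). FMOD, a keratan sulphate proteoglycan that binds collagen, was near background on O12587, where the arrays ran from 5.37 to 6.01. Its difference of 0.01 (SE 0.06, limma adjusted p = 0.901) turned its sign with 75th percentile scaling (-0.01) and with median scaling (-0.04).

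SPARC, a calcium-binding protein that attaches to collagen, had 1 called probe of 8. On O2581, TN arrays read 16.46, 17.01 and 17.34 (lowest, median and highest of 18) and HS arrays 16.87, 17.30 and 17.65 (of 17). All 17 HS arrays lay above the TN mean of their breed although the groups overlapped. The difference was 0.32 (SE 0.07, limma adjusted p = 0.0029), or 1.25-fold. The other 7 SPARC probes gave 0.22 to 0.28 with adjusted p from 0.0532 to 0.292.

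FN1 showed the largest called differences. On A_72_P340983, TN arrays read 11.53, 13.51 and 15.04 (lowest, median and highest of 18) and HS arrays 13.42, 14.21 and 15.81 (of 17). The groups overlapped widely, and 14 of the 17 HS arrays lay above the TN mean of their breed. The difference was 0.84 (SE 0.22, limma adjusted p = 0.0105), or 1.79-fold. A_72_P157831, which overlaps it by 54 bases, gave 0.84 and A_72_P304936 gave 0.77 (SE 0.20, limma adjusted p = 0.0087), while O7968 gave 0.43 (SE 0.17, limma adjusted p = 0.0763) and was not called.

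POSTN, a partner of FN1 and TNC in the matrix, separated by position. The 4 called probes start between positions 2717 and 2835 of their record and gave 0.60 to 0.76. The least secure of them was A_72_P147831 (0.60, SE 0.21, limma adjusted p = 0.0455), which lost its call in 21 of the 35 fits that left out 1 array and, without the filter on dim probes, had an adjusted p of 0.0617. A_72_P650581 lost its call without F1 HS replicate 4 (0.64, limma adjusted p = 0.0506). On A_72_P618531 TN arrays read 7.29, 9.98 and 10.90 (lowest, median and highest of 18) and HS arrays 9.48, 10.65 and 11.89 (of 17), a difference of 0.76 (SE 0.22, limma adjusted p = 0.0180). The probes at 2293 and 2601, A_72_P412698 with the same 60 bases as the latter, and O11455, which has no position, gave 0.36 to 0.44 and were not called. Whether these 2 sets of POSTN probes differ from each other in their response was not tested.

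TNC, which loosens cell adhesion, and THBS1, an activator of latent TGF-beta, were not called. On TNC O3701, TN arrays read 6.14, 8.54 and 11.53 (lowest, median and highest of 18) and HS arrays 7.98, 9.35 and 12.37 (of 17), a difference of 0.96 with an SE of 0.40 (limma adjusted p = 0.0980). On THBS1 A_72_P496491, TN arrays read 8.50, 9.64 and 11.15 and HS arrays 9.47, 9.98 and 11.22, a difference of 0.43 (SE 0.19, limma adjusted p = 0.111). Both estimates were above 0 and both groups overlapped over most of their range. Within the 5 slides the TNC difference was 1.97, -0.69, 2.35, 0.60 and 0.49, so it was not above 0 on every slide. Of the 7 THBS1 probes, 6 gave 0.38 to 0.45 and followed each other across arrays, while A_72_P151688, placed early in the record at position 419, gave -0.08 (SE 0.06, limma adjusted p = 0.370) and had an r of -0.28 with the brightest probe.

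**Figure D2:**
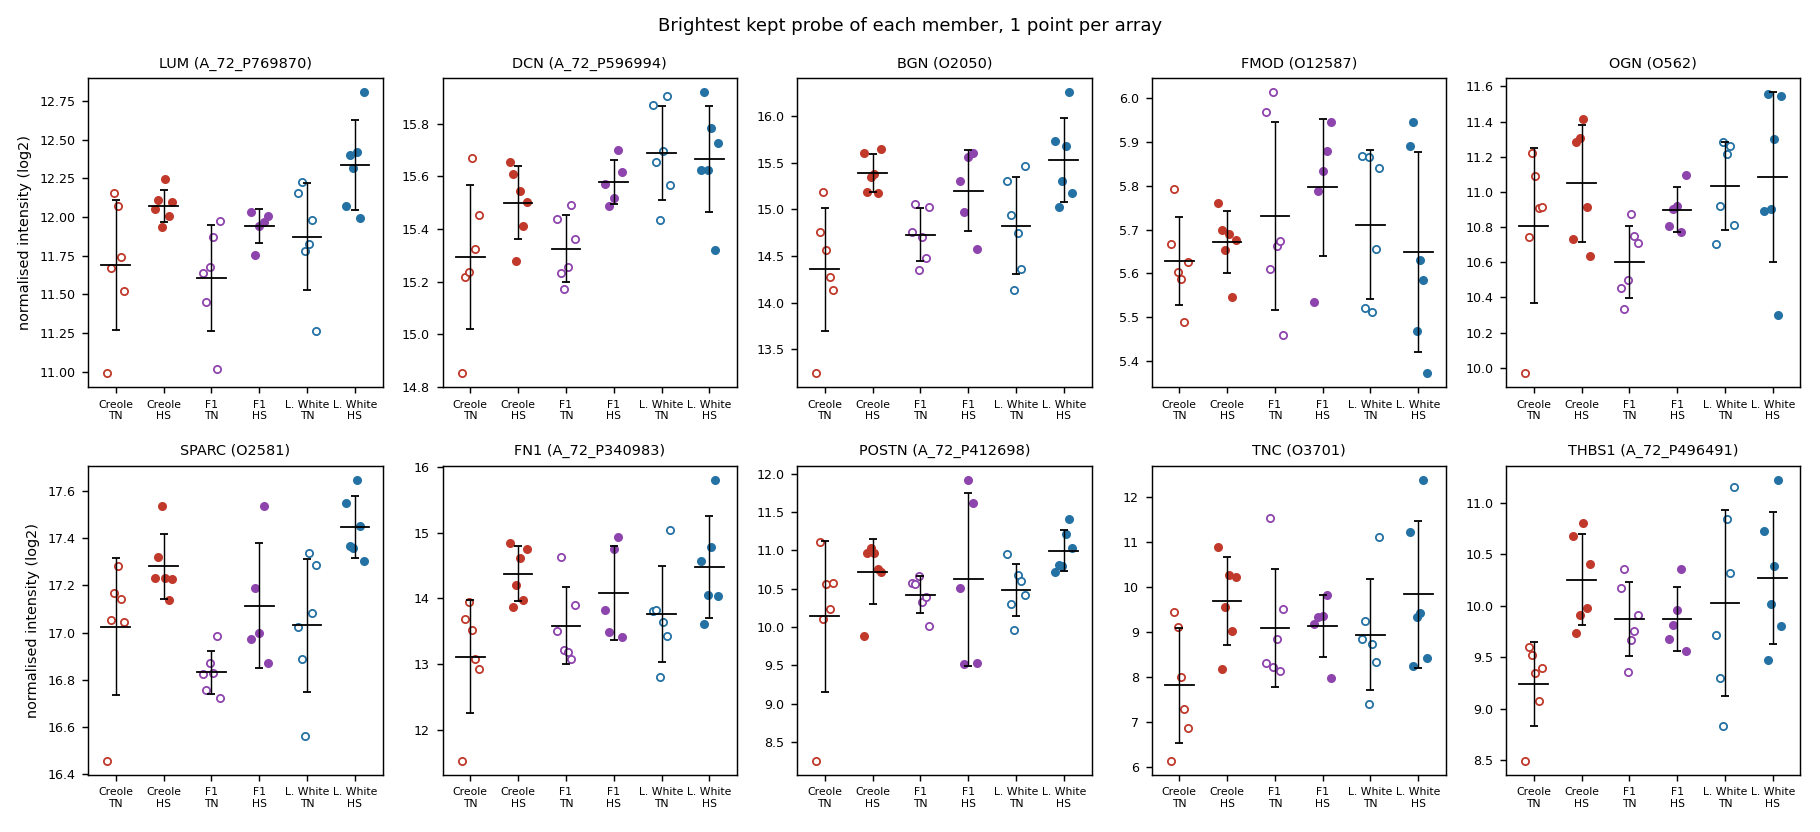
Normalised intensity (log2, y axis; each panel has its own scale) of the brightest kept probe of each of the 10 members on every array of the 6 groups (x axis); open points are TN, filled points HS, lines are group means and bars SD. The lowest Creole TN point in 9 panels is replicate 1, and the HS points of LUM and SPARC all lie above the TN mean of their breed.

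**Figure D3:**
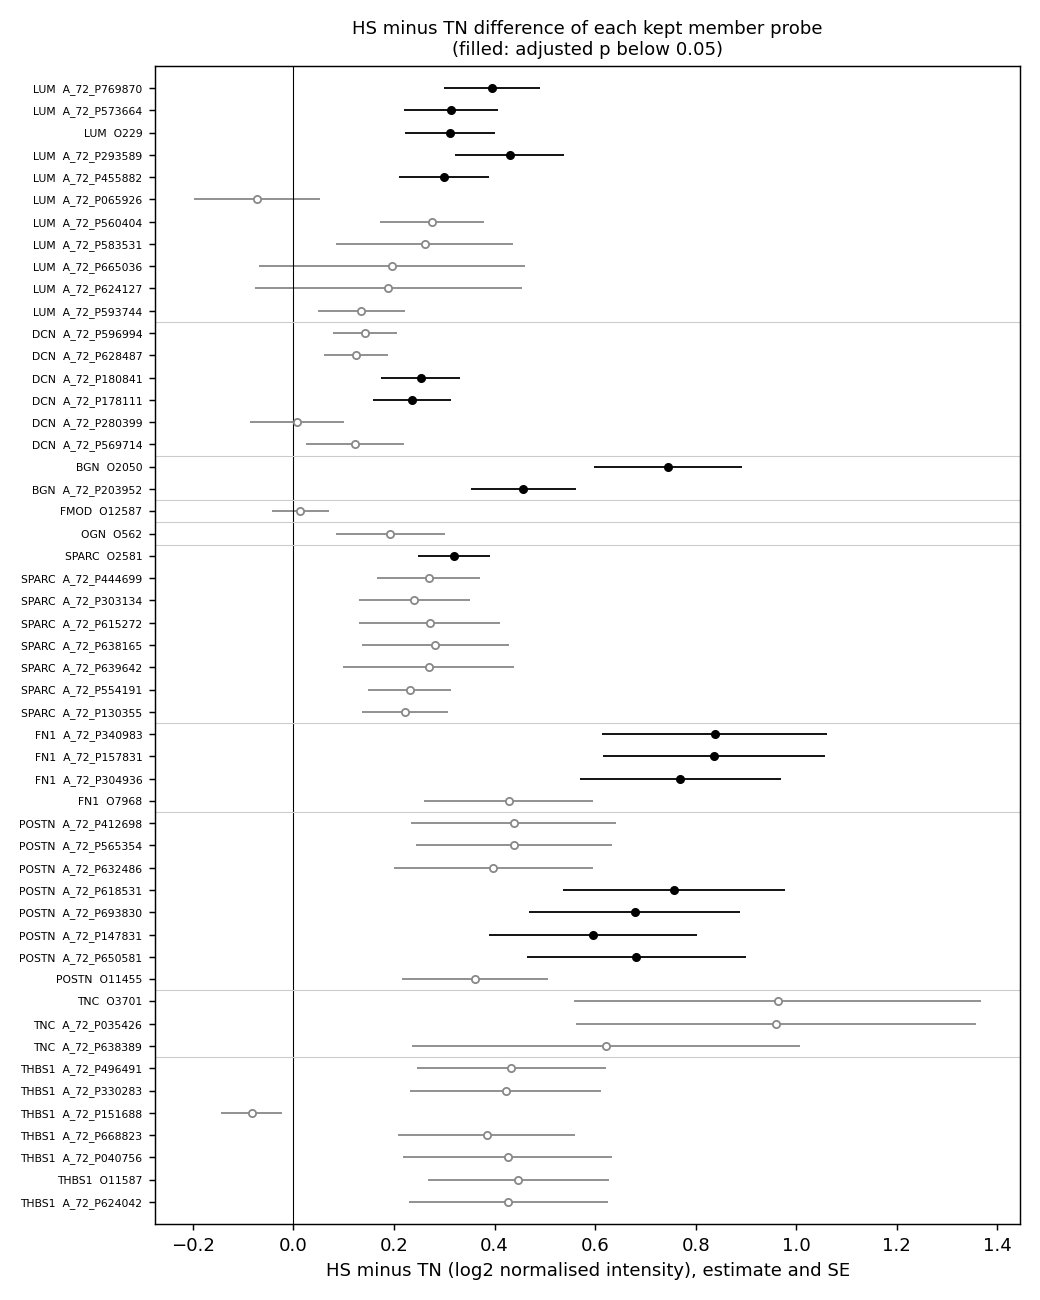
HS minus TN difference (log2, x axis) with its SE for the 51 kept member probes (y axis, by gene and falling brightness); filled points have an adjusted p below 0.05. The 17 filled points all lie to the right of 0, and 2 open points lie to the left of it.

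Markers of another cell type moved with temperature on the same arrays. All 10 listed leukocyte and macrophage markers were measured, none was at 0, 9 had an estimate above 0 in HS and 5 were called, all higher: LYZ (2.26, SE 0.51), LAPTM5 (1.26, SE 0.25), TYROBP (0.98, SE 0.28), CSF1R (0.93, SE 0.22) and AIF1 (0.89, SE 0.26). PTPRC, the marker of leukocytes at large, was at -0.02 (SE 0.07). The mean of the 10 markers went from 9.78 ± 0.86 over the 18 TN arrays to 10.64 ± 0.59 over the 17 HS arrays (± SD). Their summed intensity ran from 4470 to 37800 in TN and from 11500 to 51400 in HS.

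With this marker mean in the fit, 1 of the 51 member probes was called, BGN O2050 (0.28, limma adjusted p = 0.0484). Calls fell over the whole array too, from 16.0% to 5.08% of all kept probes. The members did not shrink alike. FN1 A_72_P340983 went from 0.84 to 0.11 and TNC O3701 from 0.96 to -0.31, whereas LUM A_72_P769870 went from 0.39 to 0.36 (limma adjusted p = 0.0541), SPARC O2581 from 0.32 to 0.24 (limma adjusted p = 0.0716) and OGN O562 from 0.19 to 0.32 (limma adjusted p = 0.123). In this fit all 11 LUM, 6 DCN, 8 SPARC and 8 POSTN probes had an estimate above 0, LUM A_72_P065926 having turned from -0.07 to 0.09, against 0 of 3 TNC and 1 of 7 THBS1 probes. The markers and the temperature move together in these groups, and the part of leukocyte RNA in the results was not tested.

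The brightness of the arrays moved too. On the log2 scale the 75th percentile of the unnormalised intensity averaged 9.05 ± 0.17 over TN arrays and 9.24 ± 0.24 over HS arrays (± SD). With it as a covariate 7 member probes were called, 4 of LUM, 2 of BGN and SPARC O2581, where 5.04% of all kept probes were called. The calls of FN1, POSTN and DCN were lost in this fit, with estimates that went from 0.84 to 0.54 on FN1 A_72_P340983 but from 0.25 to 0.27 on DCN A_72_P180841 and from 0.24 to 0.25 on DCN A_72_P178111. Across the other fits on all 35 arrays the members called numbered from 15 to 22 and all of them were higher in HS. In these fits from 9.67% (no filter) to 22.1% (array weights) of all tested probes were called. Of other cell types, fibroblast markers had 9 of 9 estimates above 0 with 2 called, VIM and COL3A1, which is also in the collagen list. They ran from 0.00056 (PDGFRA, SE 0.07) to 0.93 (S100A4, SE 0.39, not called). Adipocyte markers had 6 of 6 above 0, from 0.03 (LEP) to 0.49 (FABP4), with none called. Endothelial markers had 1 of 7 above 0 with 2 called as lower (VWF and FLT1). Fibre markers had 1 of 8 above 0 and none called, and HBB, a haemoglobin chain, fell by 1.21 (SE 0.22).

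The question whether breeds responded alike was asked with an interaction test over the 6 group means. No member probe was called, and neither was any of the 41517 probes (0% called; smallest member adjusted p = 0.963). At an unadjusted p below 0.05 there were 3 member probes, LUM A_72_P665036, LUM A_72_P624127 and 1 of SPARC, against 3.84% of all probes. On A_72_P665036 the HS minus TN difference was -0.59 (SE 0.41) in Creole, 1.18 (SE 0.43) in F1 and 0.09 (SE 0.41) in Large White, with adjusted p of 0.413, 0.378 and 0.931 in limma. The Creole and F1 values rest on the 2 low Creole HS arrays and on the 4 of 5 F1 HS arrays above the gap.

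Within Creole, 1 member probe of 51 passed, BGN O2050 (1.03, SE 0.25, limma adjusted p = 0.0326), where 1.91% of all probes passed. Creole TN arrays read 13.24, 14.42 and 15.18 (lowest, median and highest of 6) and Creole HS arrays 15.17, 15.37 and 15.65, so that only the top TN array reached the HS range. Without Creole TN replicate 1 no member probe was called within Creole. Within F1 and within Large White no member probe was called, where 0.00482% of all probes passed in each, and at an unadjusted p below 0.05 there were 12 and 15 member probes against 8.30% and 16.6% of all probes.

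No difference between breeds passed, and the estimates by breed are given as values. In Creole the estimates were largest for TNC (1.87, SE 0.68), FN1 (1.26, SE 0.38), BGN (1.03, SE 0.25) and THBS1 (1.01, SE 0.31) by the brightest probe. In F1 the same probes gave 0.04 for TNC, 0.50 for FN1, 0.47 for BGN and 0.00 for THBS1, with SEs from 0.26 to 0.71. In Large White they gave 0.89 for TNC, 0.72 for FN1, 0.70 for BGN and 0.25 for THBS1. Without Creole TN replicate 1 the Creole estimates were 1.54 for TNC, 0.95 for FN1, 0.81 for BGN and 0.86 for THBS1. In Creole that array moved LUM A_72_P769870 by over 1.5 times, to 0.24 without it, and POSTN A_72_P412698 from 0.58 to 0.21. SPARC O2581 gave 0.26 in Creole (0.14 without that array), 0.28 in F1 and 0.42 in Large White, and LUM A_72_P769870 gave 0.38, 0.33 and 0.46. On this LUM probe Large White TN replicate 6 was the lowest Large White array (11.27), but on A_72_P293589 it was the highest Large White TN array (11.48). The other LUM probes called in the additive fit gave 0.23 to 0.34 in Large White. All 8 SPARC probes had an unadjusted p below 0.05 in Large White, with a smallest adjusted p of 0.0908.

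**Figure D4:**
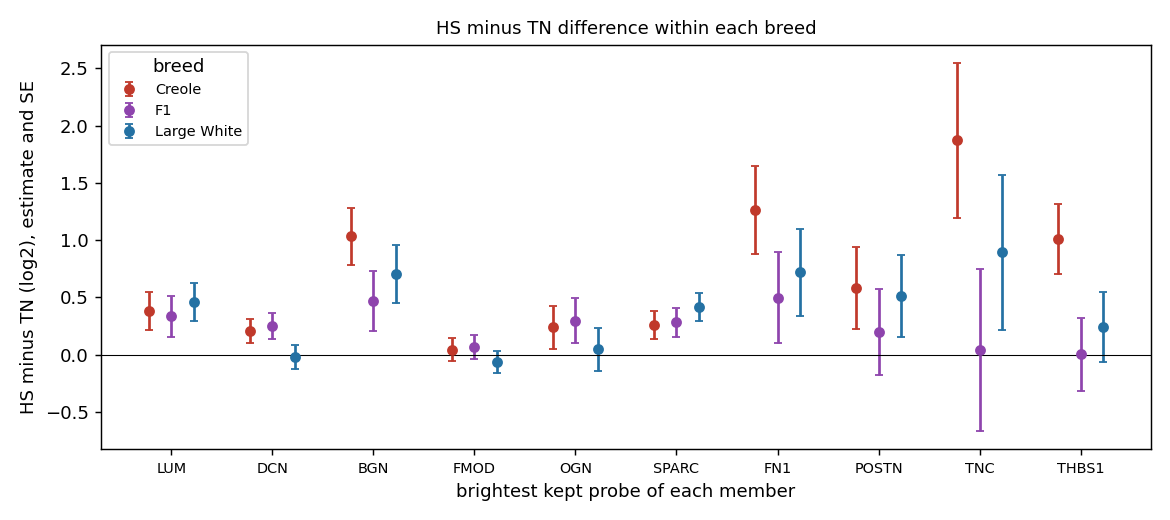
HS minus TN difference (log2, y axis) with its SE in Creole, F1 and Large White pigs for the brightest kept probe of each member (x axis). TNC, FN1, BGN, THBS1 and POSTN have their highest estimate in Creole. DCN (-0.02) and FMOD (-0.06) lie below 0 in Large White, and all other estimates lie above 0 in all 3 breeds. No interaction passed the test.

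Whether the cross sat between its parents was tested as F1 minus the mean of Creole and Large White. None of the 51 member probes was called, where 0.246% of all probes were, and 11 had an unadjusted p below 0.05 against 7.35% of all probes. Of the 51 estimates 42 were below 0, and those of LUM ran from -0.33 to 0.03. The smallest adjusted p belonged to LUM A_72_P573664 (-0.32, SE 0.10, limma adjusted p = 0.303). SPARC gave -0.33 to -0.19 on its 8 probes. For A_72_P665036 the F1 mean was 0.20 below the midpoint with an SE of 0.29, a mean that stands in the gap between the F1 arrays and describes few of them.

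Creole minus Large White is given for the other members only as values. All 6 DCN, 4 FN1, 8 POSTN, 3 TNC and 2 BGN probes were lower in Creole, by the fit, with TNC from -0.64 to -0.56, FN1 from -0.40 to -0.23 and POSTN from -0.51 to -0.31. Without Creole TN replicate 1 these ranges were -0.44 to -0.42 for TNC, -0.23 to -0.15 for FN1 and -0.28 to -0.10 for POSTN. SPARC ran otherwise, with 6 of 8 probes above 0 and a range of -0.09 to 0.23, and without that array 7 of 8 and -0.03 to 0.25. The 3 LUM probes were little moved by that array (0.83 to 1.57 without it). Outside the 3 LUM probes no member differed by more than 0.64 in either direction.

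The members varied together to different degrees among pigs of the same group. After removal of the 6 group means, over 35 arrays, BGN and FN1 had a Pearson r of 0.92 (Spearman rho 0.92), FN1 and TNC 0.88, BGN and TNC 0.83 and FN1 and THBS1 0.78. TNC and THBS1 had 0.76, and BGN and THBS1 0.67. The leukocyte marker mean had an r of 0.90 with FN1, 0.87 with BGN, 0.87 with TNC and 0.73 with THBS1. With LUM it was 0.10, with DCN 0.04, with SPARC 0.35 and with POSTN 0.39, and with OGN -0.33. Lower values joined SPARC and POSTN to FN1, BGN and THBS1 and to each other. The r was 0.59 for SPARC and THBS1, 0.56 for POSTN and FN1, 0.55 for POSTN and BGN, 0.55 for SPARC and POSTN, 0.54 for SPARC and BGN and 0.52 for SPARC and FN1. Among the proteoglycans r was 0.53 for LUM and OGN, 0.49 for DCN and OGN (Spearman rho 0.32) and 0.46 for LUM and DCN. OGN ran against TNC (r = -0.38). Without Creole TN replicate 1, over 34 arrays, FN1, BGN, TNC and the leukocyte mean still had r from 0.83 to 0.90 with each other. LUM and OGN then had 0.39, DCN and OGN 0.32, LUM and DCN 0.29, SPARC and POSTN 0.34, POSTN and BGN 0.36, and OGN and TNC -0.63. The leukocyte mean then had -0.66 with OGN, -0.10 with LUM, -0.19 with DCN, 0.18 with SPARC and 0.22 with POSTN. Its values with LUM and DCN thus turned their sign. These values describe the same 35 arrays, whose brightness, slide and tissue sample the genes share, and carry no test.

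**Figure D5:**
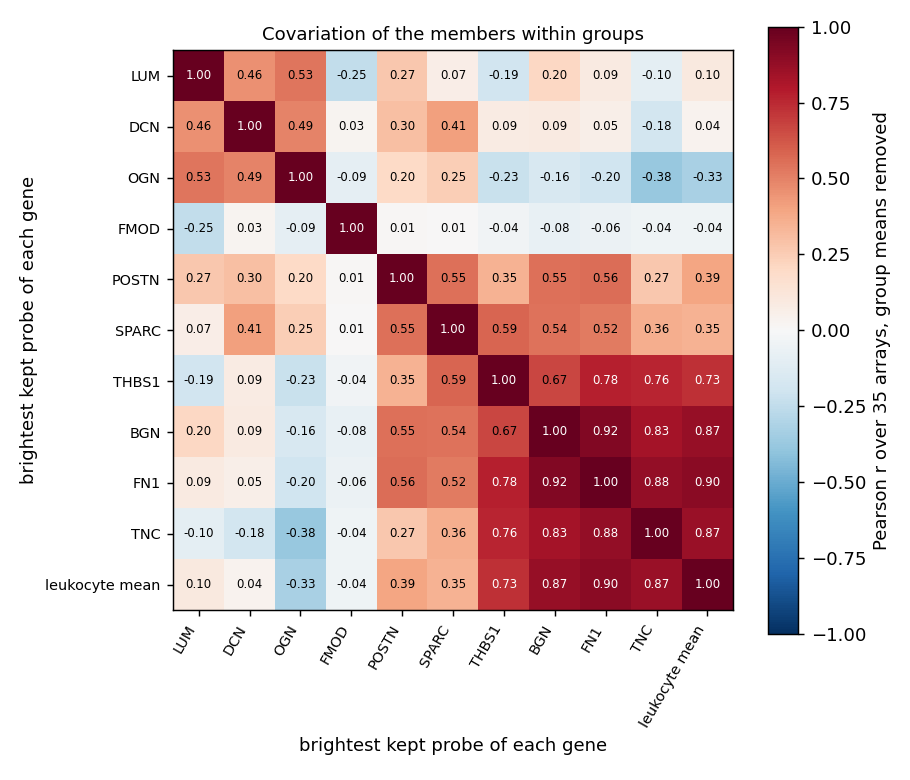
Pearson r over 35 arrays, after removal of the 6 group means, between the brightest kept probes of the 10 members and the leukocyte marker mean (both axes; colour and number give r). FN1, BGN and TNC join each other and the leukocyte mean (0.83 to 0.92), and OGN has negative values with FN1, BGN, TNC, THBS1 and the leukocyte mean.

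Removal of slide means as well changed these values little: FN1 and BGN then had an r of 0.94, FN1 and the leukocyte mean 0.96, and LUM and OGN 0.49. Among the high arrays of the first set was Large White HS replicate 5, with FN1 at 15.81, TNC at 12.37 and a leukocyte mean of 11.67. Creole HS replicate 1 had FN1 at 14.84, TNC at 10.88 and a leukocyte mean of 11.62. Large White TN replicate 6 had FN1 at 15.04, TNC at 11.09 and a leukocyte mean of 11.17. F1 TN replicate 2 had FN1 at 14.62, TNC at 11.53 and a leukocyte mean of 11.14. These 2 TN arrays were above the HS medians of FN1 (14.21) and TNC (9.35).

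Probes of a gene followed each other on most members. Against the brightest probe, the r ran from 0.95 to 0.99 for FN1, 0.97 to 0.99 for TNC, 0.85 to 0.99 for POSTN, 0.63 to 0.80 for SPARC and 0.58 to 0.84 for DCN. The 2 BGN probes had an r of 0.77. LUM and THBS1 each held probes that stood apart, as given above.

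The symbols outside the members whose probes were most like LUM A_72_P769870 on this measure were PROS1 (r = 0.64), MARCKS (0.63), RNASE4 (0.62), SLC27A3 (0.61) and ABI3BP (0.61), over 35 arrays. For DCN A_72_P596994 they were RNASE4 (0.72), PID1 (0.67), MMP2 (0.67), ABI3BP (0.66) and SLC27A3 (0.64), so that 3 symbols stood on both lists. For PROS1 the Spearman rho was 0.39. Without Creole TN replicate 1 the values were 0.48 to 0.54 for LUM and 0.53 to 0.63 for DCN. Of these 7 symbols MARCKS was higher in HS (0.26, SE 0.06, limma adjusted p = 0.0050) and the other 6 were not called.

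Genes that work with the members were counted by their brightest kept probe in the same HS minus TN fit, and a gene is called higher or lower here by that probe alone. Beside every list count stand the shares over all kept probes, 16.0% called, 7.73% as higher and 8.30% as lower. No count is read as a response of its list. Of other small leucine-rich proteoglycans 5 of 8 were measured and 1 was called, ASPN, asporin, at 0.63 (SE 0.11, limma adjusted p = 0.00032), with 17 of 17 HS arrays above their breed's TN mean. The other 4, among them PRELP (-0.04) and KERA (0.20), were not called, and the median was 0.04. KERA, keratocan, is the gene next to LUM on the chromosome.

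Of other matrix glycoproteins and proteoglycans 19 of 24 were measured, with 5 higher and 1 lower. FBLN1, fibulin 1, a partner of fibronectin, was higher by 0.66 (SE 0.12, limma adjusted p = 0.00043, 17 of 17 HS arrays) and THBS3, a thrombospondin, by 0.65 (SE 0.20, limma adjusted p = 0.0227, 14 of 17). HSPG2, perlecan, a basement membrane proteoglycan, fell by 0.26 on the log2 scale (limma adjusted p = 0.0128). Of 13 collagens 5 were higher and none lower, with a median of 0.25. COL12A1 (0.58, SE 0.14, limma adjusted p = 0.0040) and COL14A1 (0.42, SE 0.14, limma adjusted p = 0.0430), which lie on the surface of collagen fibrils, led them, though of the 11 other kept COL14A1 probes 1 was called, and the basement membrane chains COL4A1 and COL4A2 gave -0.07 and 0.05 and were not called.

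Of matrix receptors 14 of 17 were measured, with 2 higher and 1 lower. SDC2, syndecan 2, was higher by 0.75 (SE 0.23, limma adjusted p = 0.0232) and ITGB5, an integrin chain, by 0.34 (SE 0.08, limma adjusted p = 0.0034). DAG1, dystroglycan, which ties muscle fibres to laminin, fell by 0.30 on the log2 scale. Of TGF-beta ligands, receptors and latency proteins 12 of 14 were measured and 3 were higher, led by LTBP2 (0.66, SE 0.11, limma adjusted p = 0.00022) and TGFB3 (0.61, SE 0.10, limma adjusted p = 0.00014). LTBP2 belongs to the latent TGF-beta binding proteins and TGFB3 is a ligand. TGFB1 (0.30, SE 0.15) was not called.

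Of matrix proteases, inhibitors and cross-linking enzymes 22 of 24 were measured, 4 were higher and none lower. LOXL2, a lysyl oxidase that cross-links collagen, was higher by 0.46 (SE 0.13, limma adjusted p = 0.0142) and MMP14, a membrane-bound collagenase, by 0.44 (SE 0.13, limma adjusted p = 0.0190). TIMP2, an inhibitor that binds MMP14, and CTSK, a collagen-degrading cathepsin, were the other 2, and none of the 4 other kept CTSK probes and not the 1 other kept TIMP2 probe was called. Of genes that build glycosaminoglycan chains 9 of 16 were measured and none was called, with a median of 0.04. The largest of them was DSE, which converts chondroitin to dermatan sulphate, at 0.28 (SE 0.15, limma adjusted p = 0.203).

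The medians of these 7 lists ran from 0.02 for matrix receptors to 0.25 for collagens, against 0.32 over the member probes and -0.02 over all kept probes. The lists were chosen for role with earlier results of these arrays known, and no list was tested as a set. With the leukocyte mean in the fit no collagen and no protease, inhibitor or cross-linking enzyme was called, and 2 of the 19 other glycoproteins and proteoglycans were. In that fit 5.08% of all kept probes were called.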

How the data were processed

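The authors hybridised Cy3-labelled cRNA of 35 muscle samples to 1-colour porcine arrays, 1 sample per array, and extracted the scans with Feature Extraction 10.10.1.1. The deposited scanner files hold linear intensity per spot with quality flags, and the deposited value table holds log2 values of 40649 probes that the authors quantile-normalised and filtered. The number of arrays limits precision, and arrays have no read depth. From the median pixel intensity of 60305 non-control probes, values were quantile-normalised, log2 was taken, 105 outlier spots were set to missing and 41517 probes well above background on 75% of the arrays of a group were kept. No spot was saturated. Comparisons used limma 3.58.1 (lmFit and eBayes, R 4.3.3), and p-values were adjusted after Benjamini and Hochberg. Pen, slaughter day and parents, random terms in the study's own model, could not be fitted from the labels. Replicate numbers follow the order of deposition. The fits were tested on simulated data. The members and the gene lists were chosen with earlier results of these data known. Members were named by every probe, single values by the kept probe with the highest mean, each list by its 2 called genes with the largest absolute difference, and likeness by the 5 highest r. Other genes were named after their values were seen. Probe sequences and record positions come from the scanner files, gene symbols from these and the Sscrofa11.1 RefSeq table (23648 probes named), which was used for names and neighbours. Alternatives were background correction, scaling, filters, slide, array weights, covariates and leaving out arrays.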

Additional observations from a re-analysis of the deposited data

Results flagged for a closer look

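In 78 combinations of 13 probes (the brightest of each member and the 3 LUM probes with the breed pattern) and 6 groups, 7 had a highest or lowest array far from the rest of its group. A rate of 1 in 20 would give 3.9 if all combinations were separate, which they are not. The measure is the gap to the nearest array divided by the range of the group. On the LUM probes F1 HS replicate 3 was the lowest of its group, with 0.777 on A_72_P583531 (9.01 against 9.97), 0.829 on A_72_P665036 (8.15 against 9.69) and 0.866 on A_72_P624127 (7.95 against 9.63), and F1 TN replicate 6 was the highest on A_72_P624127 (0.643, 9.64 against 8.42). These 3 probes overlap, so their flags are not separate events. They were included for their breed pattern, and their flags restate the F1 split given above. The count of 7 is therefore not read against 3.9. Creole TN replicate 1 was the lowest for SPARC O2581 (0.714, 16.46 against 17.05) and for POSTN A_72_P412698 (0.647, at 8.26). Creole HS replicate 1 was the lowest for POSTN A_72_P412698 (0.726, 9.89 against 10.72). No member had all HS arrays of 1 breed above and all of another below their TN means.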

How the results depend on the processing

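No paired analysis was possible because the replicate numbers only follow the order of deposition. The count of member probes higher in HS (17) was 7 when array brightness entered the fit and 1 when the leukocyte mean did, and 14 to 23 when any 1 array was left out. Of all kept probes 16.0% were called in the main fit, 5.04% with brightness, 5.08% with the leukocyte mean and 12.7% to 20.6% without 1 array. The interaction and the parental midpoint gave 0 member probes in every fit. Within Creole (1) the count was 0 with either covariate and 0 to 6 without 1 array: 0 without Creole TN replicate 1, 5 or 6 or Creole HS replicate 1, 3, 5 or 6, and 6 without Creole TN replicate 2. Within F1 (0) array weights gave 2. Within Large White (0) array weights gave 2, spike-in scaling 5, and leaving out Large White TN replicate 6 gave 2, for a range of 0 to 2. The shares of all probes called in these alternative fits within a breed are not given here, and nothing is read from the counts. Creole minus Large White on A_72_P665036 (1.57) ran from 1.45 to 1.79 without 1 array. For the lists, whose alternatives were added after seeing the data, brightness gave 2 other glycoproteins (of 6 called), 2 collagens (of 5), 1 receptor (of 3) and 2 proteases and cross-linking enzymes (of 4), and the leukocyte mean gave 2, 0, and for the last list 0. With 75th percentile scaling 3 collagens, 7 proteases and cross-linking enzymes and 1 chain synthesis gene were called, and the proteases and cross-linking enzymes numbered 8 with spike-in scaling, 7 with slide fixed, 7 with slide random and 8 with array weights, where slide fixed also gave 1 chain synthesis gene. Without 1 array the lists ran over 1 to 1 (other small proteoglycans), 6 to 6 (glycoproteins), 4 to 6 (collagens), 3 to 4 (receptors), 3 to 3 (TGF-beta), 4 to 10 (proteases) and 0 to 1 (chain synthesis). The sign turned for FMOD with 75th percentile scaling (-0.0112) and median scaling (-0.0449) and, without 1 array (range -0.0034 to 0.0341), when Large White HS replicate 2 or F1 TN replicate 6 was left out. It also turned for TNC O3701 (-0.31) and THBS1 A_72_P496491 (-0.0716) with the leukocyte mean. Within slides the median member difference was 0.41, 0.23, 0.78 and 0.18 on the 4 full slides and -0.0677 on slide 5, which holds 1 Creole HS and 2 Large White TN arrays. The share of all called probes that were higher, 48.2%, was 37.5% with 75th percentile and 87.2% with spike-in scaling, and members were called only as higher under each. The cause of these shifts was not tested.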
